A study of Mus musculus with 77 samples.

Results

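Collagen genes are described here across mouse lung and macrophage cultures kept in room air or in excess oxygen. They were chosen by symbol (Col, a type number, a and a chain number) and by a level of at least 1 TPM (transcripts scaled for length and library size) in at least 2 libraries of a table. Of 44 collagen symbols among 24940 listed genes, 37 met the rule in at least 1 table: 36 where B6 and KO lungs share a table, 37 where B6 and DBA lungs do, 27 in a separate B6 lung set and 17 in the macrophages. By type they were 9 fibrillar genes, 6 type IV genes of the basement membrane and 22 genes of other types. The symbols that never met the rule were Col2a1, Col9a1, Col9a3, Col11a1, Col19a1, Col22a1 and Col28a1.

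Collagens are secreted triple helices, each made of chains from 1 or more genes. Fibrillar types I, III and V assemble into the cross-striated fibers that give the alveolar wall, vessels and airways their tensile strength. Type IV forms the sheet-like network of basement membranes under epithelium and endothelium. Type VI forms beaded filaments between fibers and cells, fibril-associated types such as XII, XIV and XVI decorate fibers, and types XIII, XVII, XXIII and XXV span the plasma membrane. Fibroblasts make most fibrillar collagen in lung, and prolonged hyperoxia of newborn mice, used to model chronic lung disease of preterm infants, is known to disturb alveolar growth and matrix.

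The lungs came from mice at postnatal day 14 that had been raised in room air or, from within a day of birth, in 75% oxygen. The genotypes were C57BL/6J (B6; 4 room air, 3 hyperoxia), Trem2 knock out (KO; 4 and 4; Trem2 is a lipid receptor of macrophages) and DBA/2J (DBA; 4 and 4), with a second set of B6 lungs (set 2; 2 and 3). Lungs were perfused before freezing, and poly(A) RNA was sequenced. Bone marrow-derived macrophages (BMDM; cells grown from marrow) of the 3 genotypes were kept in room air or hyperoxia for 24 h, with 2 cultures per group; an oxygen level of 95 stands only in the column names. Chromatin bound by p53 was also mapped in lungs and in B6 and KO macrophages, with replicates combined into 1 peak list per group. The labels do not say whether libraries of a group came from separate litters or cultures, so p-values measure the spread between these libraries.

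Library depth, estimated from the value of a single read, was 18.5 to 41.1 M (mega) reads in B6 and KO lungs, 12.5 to 41.1 M where B6 is tabulated with DBA, 7.08 to 8.04 M in set 2 and 14.6 to 47.0 M in macrophages. DBA room air libraries had 18.7, 25.4, 14.9 and 12.5 M, DBA hyperoxia libraries 30.4, 15.9, 38.8 and 31.5 M, and B6 room air libraries 23.3 to 41.1 M. The 7 B6 lung libraries were the same in both lung tables, so every comparison with B6 shares them. Trem2 was at 2.14 to 3.73 TPM in B6 and 1.05 to 2.75 TPM in KO room air lungs, which overlap, and at 5.97 to 9.85 and 1.96 to 2.67 TPM in hyperoxia, which do not; in macrophages it was at 908 to 962 TPM in B6 and 236 to 252 TPM in KO. Alveolar type 2 cell markers summed to 6932 TPM or more in every lung library and to at most 52.1 TPM in macrophages, whose own markers summed to 15645 TPM or more. Column names give sex and a date code, whose meaning is not stated. B6 room air replicates 1 and 2 were males of the first code and replicates 3 and 4 females of the second; B6 hyperoxia replicate 1 was female and 2 and 3 male, all of the first code. KO and DBA lungs were all male: KO room air replicates 1 and 2 had the second code and all other KO libraries the third, while DBA lungs were split evenly over the fourth and the fifth code.

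In B6 lung in room air, Col3a1, the single chain of type III collagen, was the highest member at 1171 ± 185 TPM (SD, n = 4) and ranked 16 of all 24940 genes. Col4a1, the main chain of the basement membrane network, followed at 850 ± 174 TPM and ranked 25. Col1a2 and Col4a2 came next at 490 ± 153 and 479 ± 128 TPM, a difference smaller than the spread, then the type I chain Col1a1 at 316 ± 131 TPM, and the type VI chains Col6a1 at 295 ± 41.4 TPM and Col6a2 at 270 ± 45.3 TPM, which also lay within each other's spread. Of the 37 genes, 9 averaged 100 TPM or more, 12 between 10 and 100 TPM and 16 below 10 TPM. Summed over members, collagen TPM was 6075, 4871, 4104 and 3786 in the 4 libraries, or 0.705% to 1.15% of the listed TPM.

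The regulatory stretches just before the start sites differ between these genes, and a few are shown to give the sequence context of the members described most. They are the 150 bases before the RefSeq start site (GRCm38.p6, the mm10 build), written 5′ to 3′ on the gene's strand, with the letters of a CCAAT box, a TATAAA box and a GC box (GGGCGG), or their reverse complements, in capitals. For Col4a4 and Col4a3, which are transcribed away from each other from start sites 72 bases apart, the whole 71-base stretch between the transcripts is given on the Col4a4 strand.
Col1a2, chr6:4505468-4505617, plus strand: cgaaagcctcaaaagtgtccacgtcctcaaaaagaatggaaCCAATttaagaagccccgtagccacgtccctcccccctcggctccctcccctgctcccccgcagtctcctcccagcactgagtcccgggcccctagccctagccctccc
Col3a1, chr1:45311388-45311537, plus strand: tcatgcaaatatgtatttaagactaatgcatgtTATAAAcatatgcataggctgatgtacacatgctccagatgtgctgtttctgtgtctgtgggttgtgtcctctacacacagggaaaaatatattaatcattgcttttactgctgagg
Col27a1, chr4:63215262-63215411, plus strand: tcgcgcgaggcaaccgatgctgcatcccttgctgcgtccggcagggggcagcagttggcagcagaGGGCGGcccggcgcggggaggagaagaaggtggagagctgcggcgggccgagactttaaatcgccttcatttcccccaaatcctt
Col13a1, chr10:61979109-61979258, minus strand: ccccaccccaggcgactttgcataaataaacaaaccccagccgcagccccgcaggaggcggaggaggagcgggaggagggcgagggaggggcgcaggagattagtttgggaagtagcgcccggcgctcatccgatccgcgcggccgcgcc
Col4a4 to Col4a3, chr1:82586850-82586920, minus strand: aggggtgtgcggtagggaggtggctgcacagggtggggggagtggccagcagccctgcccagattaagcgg
CCAAT was in 24.5% of all 32851 promoters over 150 bases, TATAAA in 7.57% and GGGCGG in 28.6%, both strands counted. In the 33 promoters listed for 31 of the 37 members the counts were 6, 4 and 18. None of the 3 motifs was in the Col4a4 to Col4a3 stretch, and over 71 bases before the start the shares of all promoters were 13.3%, 4.41% and 20.7%. A match is a string of letters, and no match says only that these letters are not in this window.

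In B6 lungs the members that moved with hyperoxia were mainly type VI chains, Col3a1, Col27a1 and Col13a1, and all but 1 of them fell. Of 35 members that passed the low-value filter (1 TPM in at least 3 libraries), 10 fell and 1 rose at an adjusted p under 0.05 in limma, against 26.0% falling and 16.6% rising of 15614 genes tested. The median difference on the log2(TPM + 1) scale was -0.26 over members and -0.07 over all genes tested. By class, 3 of 9 fibrillar genes fell and 1 rose, 1 of 6 type IV genes fell, and 6 of 20 others fell.

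Col27a1, a small fibrillar type known from cartilage, was at 23.7, 17.4, 12.2 and 13.5 TPM in room air, against 6.81, 6.51 and 5.39 TPM in hyperoxia. Every hyperoxia library lay below every room air library, and the difference was -1.25 ± 0.18 (log2, SE; adjusted p = 5.8e-05). Col13a1, a transmembrane collagen of cell junctions, was at 67.3, 61.5, 64.4 and 58.0 TPM against 29.9, 29.4 and 31.0 TPM. This was the tightest of the B6 changes, at -1.03 ± 0.10 (adjusted p = 2.4e-06). Col3a1 was at 1399, 1234, 1075 and 977 TPM in room air, against 958, 811 and 562 TPM in hyperoxia, groups that did not overlap, and fell by 0.61 (SE 0.19, adjusted p = 0.015).

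Col6a1, Col6a2 and Col6a3, whose chains form the main type VI collagen, fell in B6, while Col6a4 (-0.32 ± 0.24, adjusted p = 0.31) and Col6a5 (-0.24 ± 0.24, adjusted p = 0.44) did not pass the test. Col6a2 was at 330, 265, 264 and 220 TPM and then 189, 147 and 110 TPM, a difference of -0.88 ± 0.18 (adjusted p = 0.0012). Col6a3, which carries the longest chain, went from 153, 95.8, 76.3 and 78.2 TPM to 77.7, 45.8 and 31.8 TPM, with 1 hyperoxia library inside the room air range, and differed by -0.98 ± 0.26 (adjusted p = 0.0073). Col6a1 differed by -0.57 ± 0.17 (adjusted p = 0.012). The ratio of Col6a1 to Col6a2 TPM was 1.06 to 1.14 in room air and 1.31 to 1.38 in hyperoxia, so that the partners did not fall equally. The fibril-associated Col14a1 (-0.55 ± 0.17, adjusted p = 0.016) also fell.

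The type I and V chains, the bulk of the fibrillar fiber beside type III, did not pass the test in B6. Col1a1 was at 486, 354, 215 and 210 TPM in room air, against 357, 248 and 173 TPM in hyperoxia (-0.26 ± 0.28, adjusted p = 0.48). Col1a2 differed by -0.29 ± 0.23, Col5a1 by 0.03 ± 0.28 and Col5a2 by 0.01 ± 0.14, with overlapping libraries throughout. Of the type IV chains, Col4a5 fell from 82.1, 84.8, 87.8 and 75.7 TPM to 58.5, 65.7 and 54.2 TPM (-0.47 ± 0.15, adjusted p = 0.019). Col4a1 was at 1088, 863, 763 and 688 TPM and then 1124, 917 and 578 TPM (0.01 ± 0.20), and Col4a2, Col4a3, Col4a4 and Col4a6 differed by -0.06, 0.01, 0.11 and -0.14. As a share of the summed collagen TPM, type IV went from 33.5% to 34.8% in room air to 40.8% to 43.0% in hyperoxia, and fibrillar genes from 45.2% to 48.1% to 42.6% to 44.0%.

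Outside the level set for naming genes, Col17a1, the hemidesmosome collagen of epithelium, was at 1.03, 1.63, 2.34 and 1.05 TPM and then 0.354, 0.363 and 0.244 TPM in B6 (-0.90 ± 0.19, adjusted p = 0.0013). In B6 and KO lungs Col17a1 reached 1 TPM only in room air libraries, a choice that favors a fall. Col24a1 fell (-0.81 ± 0.22, adjusted p = 0.0085) and Col11a2 rose (0.63 ± 0.19, adjusted p = 0.016), the latter from 0.522 to 1.15 TPM in room air to 1.65 to 2.05 TPM. The Col11a2 call was lost within males, within the first date code, with the date code as a term and without hyperoxia replicate 2. These were picked out after their values were seen.

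Of 31 genes on a list of collagen-making and cross-linking genes, 12 fell and 5 rose in B6 hyperoxia, beside the 26.0% and 16.6% of all genes, with a median of -0.21 beside -0.07. P4ha1, a prolyl hydroxylase subunit that stabilizes the helix, averaged 34.8 TPM in room air, against 15 TPM in hyperoxia (-1.14 ± 0.11, adjusted p = 2.3e-06). Serpinh1, the collagen chaperone of the endoplasmic reticulum, averaged 494 and 233 TPM (-1.09 ± 0.10, adjusted p = 9.1e-07). Pcolce2, an enhancer of propeptide cleavage, and Plod3, a lysyl hydroxylase, fell by 1.06 and 0.77. Of 9 collagen receptors tested 6 fell, among them the integrin chain Itga1 (-1.0), the endocytic receptor Mrc2 (-0.87), the tyrosine kinase Ddr2 (-0.84) and Itga2 (-0.57). Of 16 basement membrane partners such as laminins, only the laminin chain Lama3 passed the test (-0.54 ± 0.20, adjusted p = 0.044).

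Collagen levels varied widely between the B6 libraries, and this bears on the counts. Room air replicate 1 was highest of its group in 28 of 36 members and hyperoxia replicate 1 in 26, while hyperoxia replicate 3 was lowest in 26. Markers of smooth muscle (Acta2, Tagln, Myh11 and Cnn1), all 4 detected, summed to 613, 479, 397 and 449 TPM in room air and to 512, 394 and 330 TPM in hyperoxia, highest in replicate 1 of both groups and lowest in hyperoxia replicate 3. The 7 fibroblast markers, all detected, summed to 3498 to 3929 TPM in room air, against 2245 to 2350 TPM in hyperoxia. Endothelial markers, all 5 detected, summed to 1227 to 1341 TPM in room air and to 894 to 1057 TPM in hyperoxia. Macrophage markers, all 5 detected, summed to 2623 to 5171 TPM and to 1820 to 2075 TPM, and of these 5 genes 3 fell and 1 rose. Cartilage markers, of which 1 of 7 averaged 1 TPM or more, went the other way, from 2.905 to 5.99 TPM to 9.27 to 11.9 TPM. In bulk tissue fewer cells of a type and less RNA per cell cannot be told apart, and the part of these differences in the collagen values was not tested. Over all 4155 tested genes with transcripts of 4 to 12 kb, the range of most members, the B6 median was -0.10.

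Within males alone, 15 members fell and 0 rose in B6. Col1a1 then differed by -1.0 (adjusted p = 0.0062), Col1a2 by -0.88 (adjusted p = 0.0057) and Col5a1 by -0.74 (adjusted p = 0.030), the last reversing its sign from 0.03. Within the first date code, which holds the same room air libraries, 10 fell and 0 rose; Col6a1 was not among them and Col9a2 was. With the date code as a term, 14 fell and 1 rose (Col8a1), Col1a1 and Col1a2 among those that fell; all B6 hyperoxia libraries have the first code. Col27a1, Col13a1, Col6a2, Col24a1 and Col17a1 fell under every setting tried on these B6 lungs, though the choice of Col17a1 through room air libraries favors its fall. In set 2, described below, Col27a1, Col13a1 and Col6a2 were not called and Col24a1 was not tested. Without hyperoxia replicate 3 the count was 5 falling and 1 rising, and Col3a1, Col6a1, Col6a3, Col14a1 and Col4a5 no longer passed. The share of all genes called was not taken in the alternative fits. Their counts are therefore not read as a stronger response of collagen genes.

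**Figure D1:**
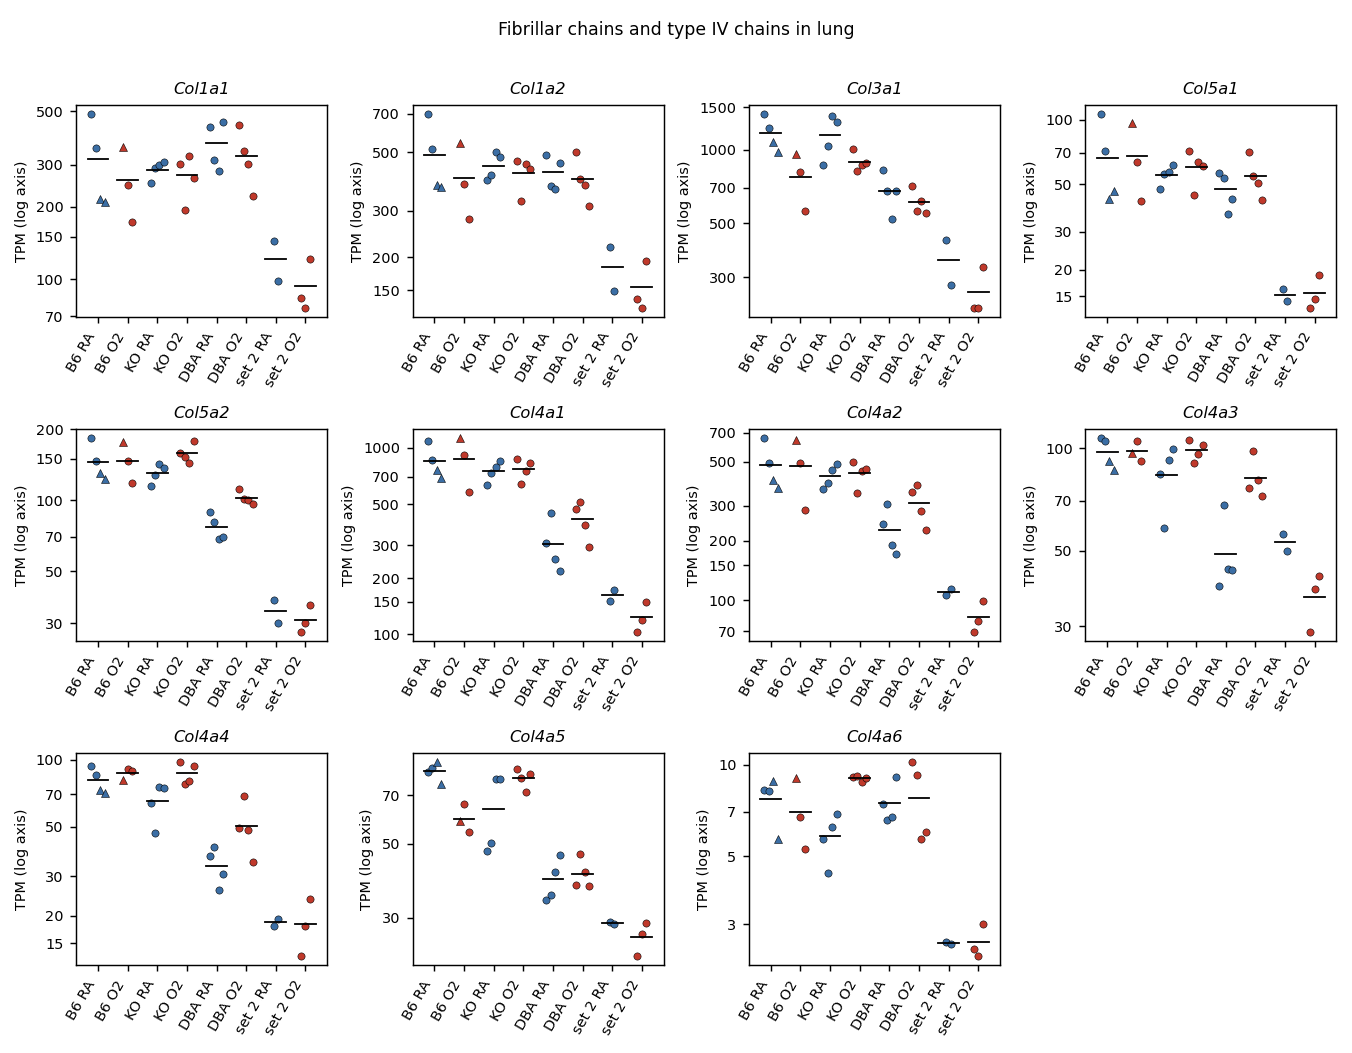
TPM (log axis) of 5 fibrillar and 6 type IV genes in each lung library, in room air (RA, blue) and hyperoxia (O2, red); triangles are females, circles are males or libraries with no stated female sex, and bars are group means. B6 Col1a1 runs from 173 to 486 TPM with overlapping groups, while DBA room air Col4a1 (220 to 448 TPM) lies below all B6 libraries of the first set.

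In KO lungs Col4a4, Col4a6, Col5a3, Col8a1, Col12a1 and Col18a1 rose with hyperoxia, and Col17a1 and Col23a1 fell. Of 35 members tested 6 rose and 2 fell, against 10.6% rising and 9.11% falling of all genes, and the median was -0.05 beside 0.01 over all genes. Col12a1, a fibril-associated collagen, was at 12.8, 10.3, 9.05 and 8.97 TPM in room air, against 20.6, 17.3, 22.5 and 22 TPM in hyperoxia (0.95 ± 0.28, adjusted p = 0.026). All 4 hyperoxia libraries lay above the room air range. The Col12a1 call was lost in 6 of the 8 fits that left out a library (all but room air replicate 1 and hyperoxia replicate 2), while the difference stayed between 0.89 and 1.10 under every setting tried. Col18a1, the source of endostatin, was at 18.6, 25.1, 24.3 and 25.3 TPM and then 32.3, 26.4, 33.0 and 37.0 TPM (0.45 ± 0.14, adjusted p = 0.031), a call lost without room air replicate 1 or hyperoxia replicate 1, 3 or 4.

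Of the 6 type IV chains 2 rose in KO. Col4a6 went from 5.69, 4.40, 6.26 and 6.90 TPM to 9.07, 9.20, 8.76 and 9.00 TPM (0.57 ± 0.15, adjusted p = 0.018), and Col4a4 from 64.3, 47.1, 75.5 and 75.0 TPM to 97.3, 78.2, 80.0 and 93.9 TPM (0.43 ± 0.13, adjusted p = 0.035). The other 4 type IV chains differed by 0.04 to 0.35 and did not pass. Here the date code matters: Col4a5 was at 47.7 and 50.3 TPM in the 2 room air libraries of the second code and at 78.1 and 78.1 TPM in those of the third. Within the third code alone the differences were 0.01 for Col4a5, 0.21 for Col4a4 (adjusted p = 0.21) and 0.40 for Col4a6 (adjusted p = 0.033). With the date code as a term in the model, Col4a4, Col4a6 and Col18a1 lost their calls, at adjusted p of 0.27, 0.15 and 0.12. The Col4a4 call was also lost without room air replicate 1 or 2 or hyperoxia replicate 1 or 4, and that of Col4a6 without room air replicate 2. The count of called members was 5 without KO room air replicate 2 or without hyperoxia replicate 1 or 4.

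Col23a1, a transmembrane collagen, was at 21.2, 30.8, 28.8 and 30.7 TPM in KO room air and 17.1, 12.2, 18.8 and 16.4 TPM in hyperoxia (-0.76 ± 0.14, adjusted p = 0.0017). Named after their values were seen, since they lie under 5 TPM, are Col17a1 (1.63 to 2.26 TPM, then 0.360 to 0.805 TPM, a difference of -0.93 ± 0.17), Col8a1, a short-chain collagen of vessel walls (1.27 to 1.93 TPM, then 3.43 to 4.62 TPM, 1.05 ± 0.14), and Col5a3 (0.809 to 1.33 TPM, then 2.81 to 4.65 TPM, 1.16 ± 0.17). In each of the 3 the groups did not overlap, and these calls held within the third date code. Col17a1 passed the filter only through room air libraries, a choice that favors its fall. Col3a1 averaged 1149 and 894 TPM (-0.34 ± 0.17, adjusted p = 0.18) and Col1a1 286 and 271 TPM (-0.10 ± 0.25). Within the third code, Col3a1 differed by -0.59 (adjusted p = 0.0095).

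Of the 31 collagen-making genes in KO, 3 rose and 1 fell, beside 10.6% rising and 9.11% falling of all genes. The cross-linking enzyme Loxl4 (0.84 ± 0.15), the prolyl 3-hydroxylase P3h2 (0.42 ± 0.11) and the propeptide cleavage enhancer Pcolce (0.35 ± 0.10) were higher and Pcolce2 was lower (-0.73 ± 0.09). Serpinh1 averaged 452 and 451 TPM. Of the receptors Ddr2 fell (-0.70 ± 0.11, adjusted p = 0.00057), and of the basement membrane partners the laminin chain Lamc3 fell (-0.61 ± 0.19, adjusted p = 0.032). Fibroblast markers summed to 3465 to 4220 TPM in room air, against 2182 to 2989 TPM in hyperoxia and smooth muscle markers to 425 to 504 and 494 to 661 TPM. Endothelial markers summed to 1184 to 1391 and 863 to 1046 TPM, and macrophage markers to 5019 to 6469 and 2780 to 3509 TPM. Of the 5 macrophage markers 2 fell and 0 rose, with a median difference of 0.23, so their sum does not stand for each of them. Cartilage markers, of which 1 of 7 averaged 1 TPM or more, summed to 3.26 to 5.42 and 11.4 to 18.8 TPM. The part of these markers in the collagen values was not tested.

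In DBA lungs hyperoxia went with higher levels of the type IV chains Col4a3 and Col4a4 and of Col12a1, Col13a1 and Col18a1, and with lower Col27a1 and Col23a1. Of 33 members tested 7 rose and 5 fell, against 18.6% rising and 12.4% falling of 15623 genes, with medians of 0.03 and 0.05. Col4a3, a chain of the specialized basement membrane of alveoli and glomeruli, was at 39.3, 68.2, 44.2 and 43.7 TPM in room air, against 76.4, 98.2, 80.5 and 72.2 TPM in hyperoxia. No hyperoxia library fell into the room air range, and the difference was 0.75 ± 0.14 (adjusted p = 0.0013). Its neighbor Col4a4 rose by 0.55 (SE 0.17, adjusted p = 0.024) from 36.8, 40.5, 26.0 and 30.7 TPM to 49.7, 68.5, 48.4 and 34.6 TPM, with overlap.

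Col4a1 and Col4a2, whose start sites lie 21 bases apart on opposite strands, differed by nearly the same amount in each lung set: 0.46 and 0.46 in DBA, 0.04 and 0.05 in KO, 0.01 and -0.06 in B6, and -0.39 and -0.44 in set 2. None of these passed the test. Col4a5 and Col4a6, 1342 bases apart, differed by -0.47 and -0.14 in B6 and by 0.35 and 0.57 in KO. In DBA they differed by 0.06 and 0.03 and in set 2 by -0.14 and 0.00. Of these, Col4a5 in B6 and Col4a6 in KO passed the test. Col3a1 and Col5a2, tail to tail at 24.6 kb, did not move as a pair, with differences of -0.61 and 0.01 in B6, -0.34 and 0.28 in KO, -0.14 and 0.41 in DBA and -0.44 and -0.12 in set 2.

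Col13a1 went up in DBA, from 20.5, 28.7, 15 and 18.7 TPM to 35.8, 28.6, 37.4 and 31.9 TPM (0.69 ± 0.14, adjusted p = 0.0022). Col18a1 rose from 16.8, 21.9, 10.1 and 17.2 TPM to 35.1, 29.1, 33.8 and 24.7 TPM (0.89 ± 0.19, adjusted p = 0.0027), without overlap. Col12a1 rose from 3.94, 4.58, 3.36 and 2.94 TPM to 11.9, 7.48, 7.92 and 5.98 TPM (0.96 ± 0.30, adjusted p = 0.024), also without overlap. Col5a2, a minor chain of type V, rose by 0.41 (SE 0.13, adjusted p = 0.031). Col27a1 fell from 30.9, 29.6, 23.8 and 30.2 TPM to 15.4, 14.8, 18.4 and 21.7 TPM (-0.68 ± 0.17, adjusted p = 0.0078), and Col23a1 by 0.55 (SE 0.17, adjusted p = 0.027).

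Col8a1 (0.57 ± 0.17), Col6a5 (-0.92 ± 0.24), Col11a2 (-0.54 ± 0.16) and Col20a1 (-0.46 ± 0.16) were also called in DBA and, lying under 5 TPM, are named after their values were seen. Col1a1 averaged 370 TPM in room air, against 327 TPM in hyperoxia (-0.19 ± 0.29), Col1a2 420 and 398 TPM (-0.09 ± 0.22), Col3a1 675 and 610 TPM (-0.14 ± 0.18) and Col5a1 47.4 and 54.5 TPM (0.19 ± 0.28), and none of them passed. Within the fourth date code 1 member was called, Col27a1 (-0.96), with 2 libraries a group. Within the fifth 7 rose and 2 fell, including Col4a3 (0.78), Col13a1 (1.00), Col18a1 (1.07) and Col12a1 (0.93). The share of all genes called was not taken within a code. In the fifth, the room air libraries had an estimated 14.9 and 12.5 M reads and the hyperoxia libraries 38.8 and 31.5 M. Over both codes the count was 7 without DBA room air replicate 3 or 4 or without hyperoxia replicate 1. Leaving out any 1 of 3 to 5 libraries, not the same for each gene, ended the calls of Col4a4, Col12a1, Col5a2, Col23a1, Col8a1, Col11a2 and Col20a1, while Col4a3, Col13a1, Col18a1, Col27a1 and Col6a5 kept theirs in all fits that left out a library.

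Of the 31 collagen-making genes in DBA lungs 11 rose and 2 fell. Of all genes, for this list and the next ones, 18.6% rose and 12.4% fell. Collagen-making genes that rose included P3h2 (0.77 ± 0.18), the lysyl oxidase-like Loxl1 that cross-links elastic and collagen fibers (0.75 ± 0.16, from 70.9 to 118 TPM), the prolyl isomerase Ppib (0.72 ± 0.13) and the procollagen protease Adamts2 (0.71 ± 0.16). Of 16 basement membrane partners 5 rose and 0 fell, among them the laminin chains Lamb3 (1.20 ± 0.21) and Lamb1 (0.71 ± 0.19) and the type IV cross-linking enzyme Pxdn (0.69 ± 0.21). Of 9 receptors, Mrc2 (0.46 ± 0.15) and Itgb1 (0.36 ± 0.11) rose and Itga10 fell (-1.12 ± 0.13). Alveolar type 2 markers summed to 6932 to 11760 TPM in room air, against 12683 to 24980 TPM in hyperoxia and fibroblast markers to 2316 to 3461 and 3083 to 3712 TPM. Of the 7 fibroblast markers 1 fell and 0 rose. Alveolar type 1 markers summed to 1490 to 2167 and 2170 to 2493 TPM. Cartilage markers, of which 0 of 7 in room air and 1 of 7 in hyperoxia averaged 1 TPM or more, summed to 0.686 to 1.73 and 1.86 to 2.15 TPM. The part of these markers in the collagen values was not tested.

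**Figure D2:**
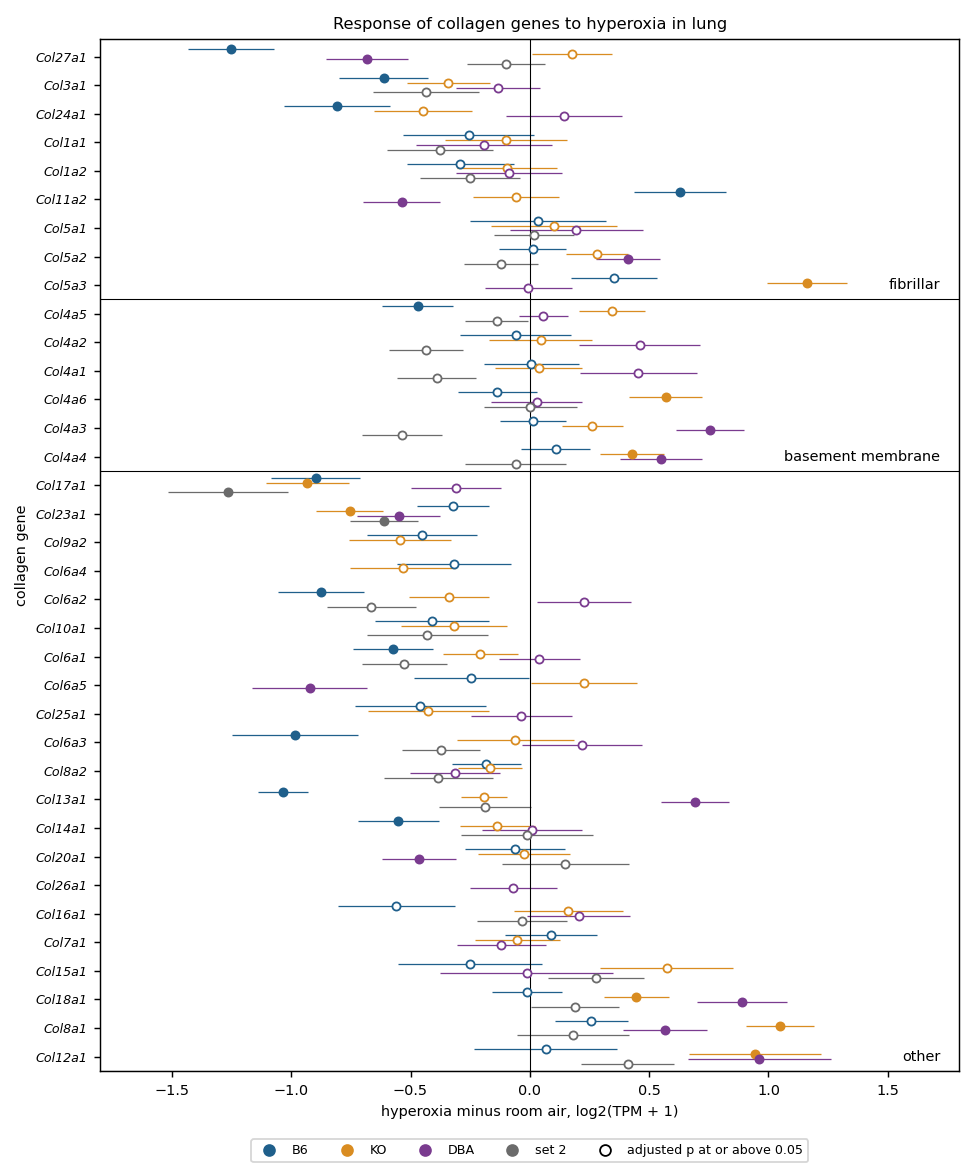
Hyperoxia minus room air on the log2(TPM + 1) scale for every tested member in 4 lung sets, by class; points are fitted differences, bars their SE, and filled points have an adjusted p under 0.05 in limma. B6 points of Col27a1, Col13a1, Col6a1, Col6a2 and Col6a3 lie left of -0.5, and KO and DBA points of Col12a1 near 0.95.

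In set 2, the second group of B6 lungs, Col17a1 and Col23a1 fell and no member rose among 27 tested, against 1.81% falling and 3.13% rising of 14636 genes. Col17a1 was at 2.10 and 2.92 TPM in room air, against 0.311, 0.407 and 0.653 TPM in hyperoxia (-1.27 ± 0.25, adjusted p = 0.027), and Col23a1 at 19.2 and 19 TPM and then 11.2, 11.5 and 13.9 TPM (-0.61 ± 0.14, adjusted p = 0.045). Col17a1 passed the filter only through the room air libraries, a choice that favors its fall. The median over members was -0.19 and over all genes 0.01. Of the 6 fibrillar members tested, Col27a1 among them, none was called, and their differences ran from -0.44 to 0.02. Col3a1 was at 428 and 279 TPM against 225, 224 and 329 TPM (-0.44 ± 0.22), Col6a2 at 108 and 85.6 TPM against 50.4, 56.8 and 76.9 TPM (-0.66 ± 0.19, adjusted p = 0.078), and Col13a1 at 19 and 18 TPM against 12.8, 15.4 and 21.2 TPM (-0.19 ± 0.19). The type I and V chains differed by -0.38 (Col1a1), -0.25 (Col1a2), 0.02 (Col5a1) and -0.12 (Col5a2), and the type IV chains by -0.53 (Col4a3) to 0.00 (Col4a6). Neither call stood in all fits that left out a library: the count was 0 without either room air library or hyperoxia replicate 1, and 1 without hyperoxia replicate 2. Of the partner genes Pcolce2 fell (-0.92 ± 0.11, adjusted p = 0.0039) and the prolyl hydroxylase P4ha3 rose (0.76 ± 0.17, adjusted p = 0.037). Fibroblast markers summed to 5737 to 5825 TPM in room air and 4644 to 4720 TPM in hyperoxia, endothelial markers to 759 to 841 and 505 to 602 TPM, and macrophage markers to 5276 to 5847 and 2916 to 3643 TPM. Of 5 macrophage markers 1 fell and 1 rose, and of 7 fibroblast markers 1 fell and 0 rose. Cartilage markers, of which 1 of 7 averaged 1 TPM or more, summed to 2.56 to 2.67 and 10.9 to 16.1 TPM. The part of these markers was not tested. Summed collagen TPM was 1260 to 1570 in room air and 930 to 1343 in hyperoxia, beside 3786 to 6075 in the first B6 room air lungs; the tables were normalized separately and the depth was lower here, so no test was made across them.

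**Figure D3:**
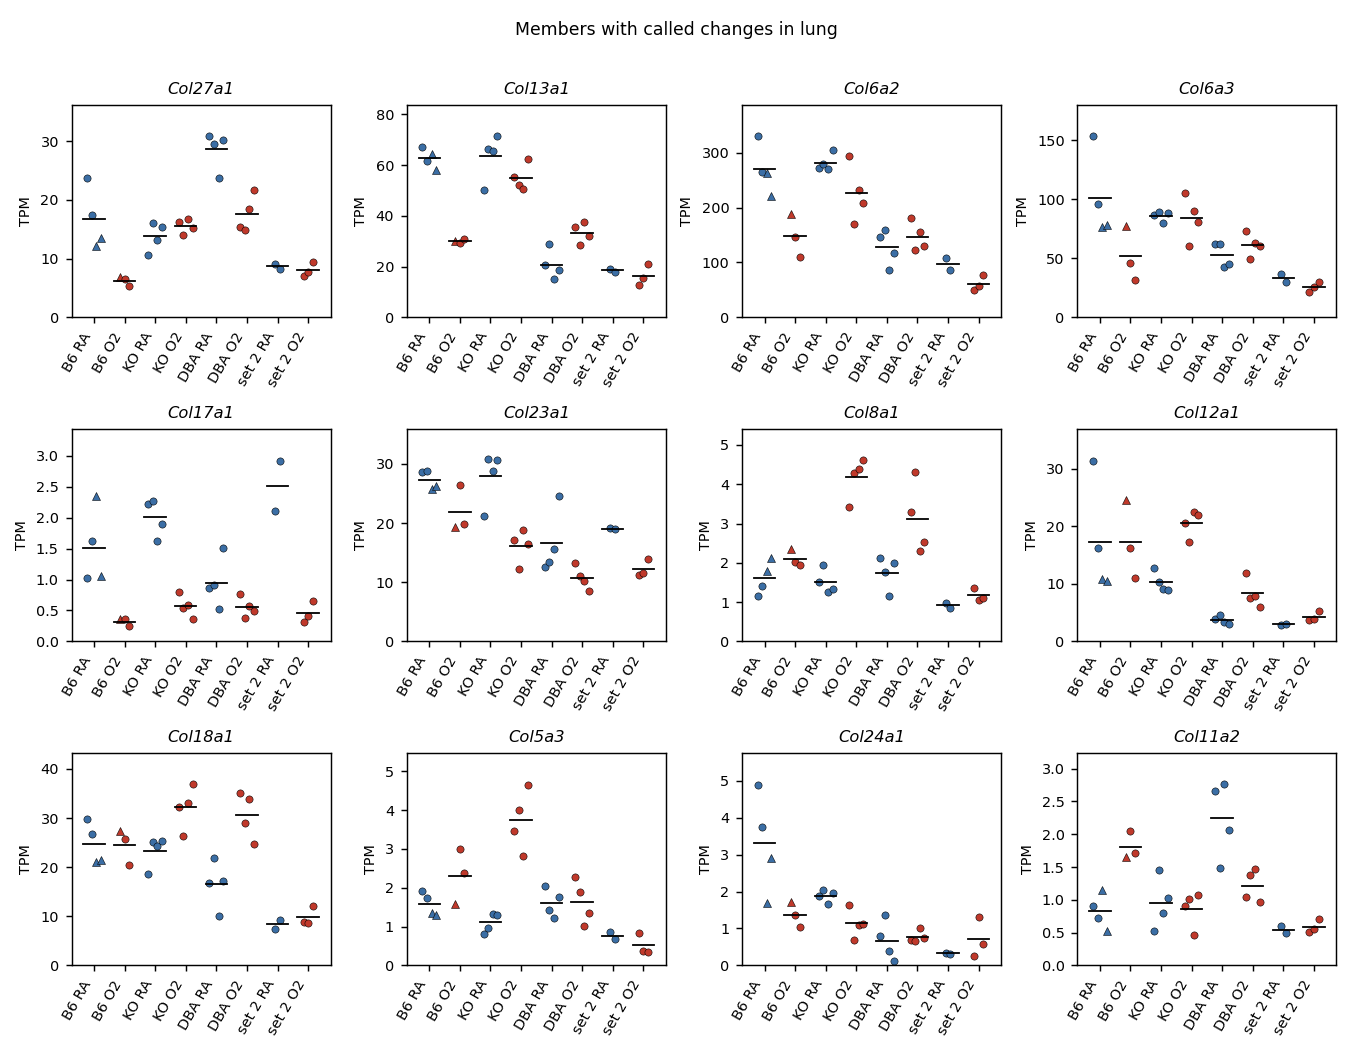
TPM of 12 members with called changes in each lung library; colors, symbols and bars as for the fibrillar and type IV genes. B6 hyperoxia Col13a1 sits at 29.4 to 31.0 TPM below all B6 and KO room air libraries of the first set, while DBA Col13a1 is higher in hyperoxia.

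The responses themselves were compared between genotypes by an interaction term, so that a positive value means a higher hyperoxia minus room air difference than in B6. For KO against B6, 6 of 35 members were higher and 0 lower, against 16.4% and 8.98% of all genes. Col27a1 differed most (1.43 ± 0.25, adjusted p = 0.00071; 0.18 in KO and -1.25 in B6), then Col13a1 (0.84 ± 0.14, adjusted p = 0.00062; -0.19 and -1.03). Col4a5 (0.82 ± 0.20, adjusted p = 0.0087) and Col4a6 (0.70 ± 0.23, adjusted p = 0.032) followed among type IV chains, with Col8a1 (0.79 ± 0.21) and Col5a3 (0.81 ± 0.25) among genes under 5 TPM. The Col4a5 and Col4a6 values include the date code difference of KO room air libraries given above. The Col4a6 call was lost under 11 alternatives, quantile normalization and 9 fits without 1 library among them, and that of Col5a3 under 4. That of Col8a1 was lost within males alone. Under quantile normalization the split was 4 higher and 1 lower. Within males alone it was 14 higher and 0 lower, with the 2 highest B6 room air libraries as the only B6 controls. The share of all genes called was not taken in that fit.

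For DBA against B6, 6 of 33 members had a higher response and 1 a lower one, against 20.0% and 9.20% of all genes. Col13a1 differed most, by 1.73 (SE 0.21, adjusted p = 0.00011), since it rose in DBA and fell in B6. Col6a3 (1.20 ± 0.37, adjusted p = 0.024) and Col6a2 (1.10 ± 0.29, adjusted p = 0.011) differed because of the B6 fall, with DBA values of 0.22 and 0.23. Col18a1 (0.90 ± 0.28, adjusted p = 0.024), Col4a3 (0.74 ± 0.21, adjusted p = 0.016) and Col4a5 (0.53 ± 0.15, adjusted p = 0.018) were also higher, and Col11a2 was lower (-1.17 ± 0.24, adjusted p = 0.0026). Col3a1 differed by 0.48 (SE 0.26) without passing. The Col6a3 call was lost without B6 hyperoxia replicate 2 or 3 or DBA room air replicate 3, and that of Col18a1 without B6 hyperoxia replicate 3. That of Col4a5 was lost within males alone. The median of all genes was 0.11 here and 0.00 after quantile normalization, which left the split of members at 6 and 1. Within males alone it was 11 and 1, in a fit where the share of all genes called was not taken.

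Some partner genes differed in the same tests. Beside them, 16.4% of all genes were higher and 8.98% lower in KO, and 20.0% and 9.20% in DBA. In KO against B6, 9 of 31 collagen-making genes were higher and 2 lower, with Serpinh1 (1.09 ± 0.13) and P4ha1 (1.04 ± 0.16) the largest positive values and Adamts3 (-0.89 ± 0.21) and Lox (-0.79 ± 0.18) the negative ones. In DBA against B6 the counts were 16 and 3, with Loxl1 (1.51 ± 0.24), P4ha3 (1.27 ± 0.44), Pcolce2 (1.04 ± 0.23) and Serpinh1 (1.01 ± 0.23) at the top. Of 9 receptors 3 were higher in KO and 4 in DBA, Mrc2 (0.70 and 1.33) and Itga1 (0.64 and 1.18) in both. Both comparisons share the B6 libraries.

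Between KO and B6 lungs in room air, no member passed the test, against 0.0512% higher and 0.0256% lower of all genes; 4 had an unadjusted p under 0.05. Col1a1 averaged 286 TPM in KO and 316 TPM in B6, Col3a1 1149 and 1171 TPM, Col4a1 755 and 850 TPM and Col13a1 63.4 and 62.8 TPM. In hyperoxia 8 members were higher in KO and 2 lower, against 22.0% and 15.2% of all genes. Col27a1 was at 16.2, 14.0, 16.7 and 15.2 TPM in KO hyperoxia lungs, above the 5.39 to 6.81 TPM of B6 (1.20 ± 0.18, adjusted p = 0.00012), and Col13a1 at 55.4, 52.2, 50.5 and 62.2 TPM against 29.4 to 31.0 TPM (0.85 ± 0.10, adjusted p = 2.2e-05). The type VI chains Col6a3 (0.75 ± 0.26), Col6a2 (0.61 ± 0.18) and Col6a1 (0.47 ± 0.17) and Col4a5 (0.41 ± 0.15) were higher as well, as were Col8a1 and Col5a3, and Col23a1 (-0.42 ± 0.15) and Col11a2 were lower. The calls of Col6a1, Col6a3 and Col4a5 were each lost under 7 alternatives, that of Col5a3 under 8 and that of Col23a1 under 6, while Col27a1, Col13a1 and Col8a1 held under all that were run. In the same libraries macrophage markers summed to 2780 to 3509 TPM in KO and 1820 to 2075 TPM in B6, mesothelial markers to 133 to 249 and 114 to 146 TPM, and smooth muscle markers to 494 to 661 and 330 to 512 TPM. Of 5 macrophage markers 4 were higher and 1 lower in KO. The part of these markers was not tested. Genotype and date code cannot be told apart in this comparison. The count was 5 without B6 hyperoxia replicate 3 or KO replicate 4 and 6 without B6 replicate 2.

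DBA lungs in room air held less of most collagen messages than B6 lungs, and type IV stood lowest by class. Of 33 members tested 18 were lower and 6 higher, against 34.8% and 21.5% of all genes, with medians of -0.67 and -0.12. Of the type IV chains 5 of 6 were lower, with a class median of -1.07, and 3 of 9 fibrillar genes were lower and 2 higher. Over the 4169 tested genes of 4 to 12 kb the median was -0.26.

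Col4a1 was at 308, 448, 253 and 220 TPM in DBA room air lungs, all below the lowest B6 library at 688 TPM, a difference of -1.50 ± 0.24 (adjusted p = 0.00011). Col4a4 (-1.26 ± 0.17), Col4a2 (-1.07 ± 0.25), Col4a5 (-1.07 ± 0.10) and Col4a3 (-1.01 ± 0.14) followed, each at an adjusted p of 0.0022 or less, and Col4a6 did not differ by more than its spread (-0.04). Col3a1 was at 829, 676, 521 and 674 TPM, below all B6 libraries (-0.80 ± 0.18, adjusted p = 0.0013), and Col5a2 was lower by 0.90 on the same scale (-0.90 ± 0.13). By contrast Col1a1 was at 429, 315, 282 and 453 TPM in DBA, within the B6 spread, and Col1a2 averaged 420 TPM against 490 TPM. The ratio of Col3a1 to Col1a1 TPM was 1.49 to 2.15 in DBA and 2.88 to 4.99 in B6 room air libraries, without overlap.

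Among the other types, Col12a1 was at 3.94, 4.58, 3.36 and 2.94 TPM in DBA against 10.6 to 31.4 TPM in B6 (-1.83 ± 0.30, adjusted p = 0.00011), and Col13a1 at 15 to 28.7 TPM against 58.0 to 67.3 TPM (-1.59 ± 0.14, adjusted p = 4.9e-07). Col6a2 differed by -1.10 ± 0.20. Col27a1 was higher, at 23.8 to 30.9 TPM against 12.2 to 23.7 TPM (0.78 ± 0.17, adjusted p = 0.0013), and so was Col8a2 (0.56 ± 0.19, adjusted p = 0.020), whose call was lost within males and without DBA room air replicate 4, the library at 10.3 TPM. Of 16 basement membrane partners tested all 10 called were lower in DBA, with Lamb3 (-2.28 ± 0.21), Lama3 (-1.72 ± 0.19), Lama2 (-1.62 ± 0.21) and Lama4 (-1.54 ± 0.21) first. Collagen-making genes gave 14 lower and 2 higher of 31, among them P3h2 (-1.31), Adamts2 (-1.10), Ppib (-1.09) and P3h1 (-1.01). Of 9 receptors 7 were lower, Itga1 most (-1.86 ± 0.21), and Itga10 was higher (0.89 ± 0.13). Beside these list counts, 34.8% of all genes were lower and 21.5% higher. Markers moved too: alveolar type 2 markers summed to 6932 to 11760 TPM in DBA and 18970 to 29523 TPM in B6, fibroblast markers to 2316 to 3461 and 3498 to 3929 TPM, and mesothelial markers to 214 to 325 and 96.8 to 145 TPM. Of the 7 fibroblast markers 2 were lower and 2 higher in DBA. Macrophage markers, 5 of 5 of them lower, summed to 692 to 1114 TPM in DBA and 2623 to 5171 TPM in B6, and endothelial markers to 852 to 1318 and 1227 to 1341 TPM. Cartilage markers, of which 0 of 7 in DBA and 1 of 7 in B6 averaged 1 TPM or more, summed to 0.686 to 1.73 and 2.905 to 5.99 TPM. The part of these markers was not tested, all libraries were aligned to the same build, and genotype and date code cannot be told apart here.

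In hyperoxia 7 members were lower in DBA than in B6 and 2 higher, against 22.8% and 23.3% of all genes. Col4a1 was at 471, 511, 384 and 294 TPM in DBA and 1124, 917 and 578 TPM in B6 (-1.05 ± 0.26, adjusted p = 0.0044). Col4a4 (-0.82 ± 0.18), Col23a1 (-0.97 ± 0.19), Col4a5 (-0.54 ± 0.11), Col12a1 (-0.94 ± 0.32) and Col5a2 (-0.50 ± 0.15) were lower, and Col27a1 was higher at 14.8 to 21.7 TPM against 5.39 to 6.81 TPM (1.35 ± 0.19, adjusted p = 3.6e-05). The Col12a1 call was lost within males and without B6 hyperoxia replicate 1 or 2 or DBA hyperoxia replicate 2, 3 or 4. That of Col5a2 was lost within males and without B6 hyperoxia replicate 1. Col13a1, lower in DBA in room air, averaged 33.4 TPM against 30.1 TPM. Fibroblast markers summed to 3083 to 3712 TPM in DBA hyperoxia and 2245 to 2350 TPM in B6, and mesothelial markers to 156 to 268 and 114 to 146 TPM. Of the 7 fibroblast markers 3 were higher and 2 lower in DBA. Cartilage markers, of which 1 of 7 averaged 1 TPM or more, summed to 1.86 to 2.15 and 9.27 to 11.9 TPM. The part of these markers was not tested. The type IV share of collagen TPM was 19.2% to 30.4% in DBA room air and 28.1% to 36.5% in DBA hyperoxia libraries.

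**Figure D4:**
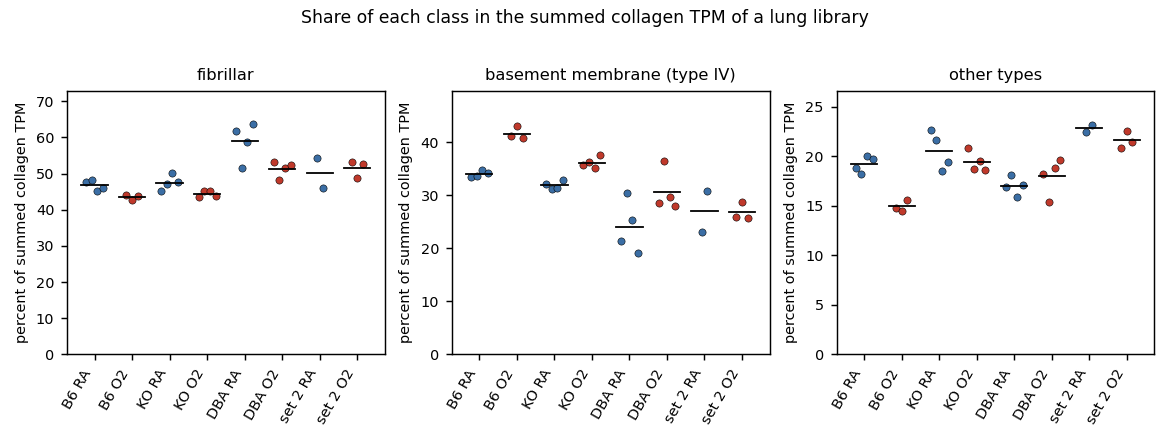
Percent of the summed collagen TPM held by fibrillar, type IV and other members in each lung library (RA room air, O2 hyperoxia; bars are group means). The B6 type IV share moves from 33.5% to 34.8% up to 40.8% to 43.0%, and the DBA room air fibrillar share reaches 63.7%.

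In macrophages, collagen messages set the B6 cultures apart from the other genotypes. In B6 cultures Col1a1 was listed at 0 and 0.023 TPM in room air and at 0 in both hyperoxia cultures, and Col1a2 at 0.151, 0.100, 0 and 0.014 TPM. KO cultures held Col1a1 at 29.8 and 24.5 TPM and Col1a2 at 59.3 and 47.2 TPM in room air, and DBA cultures held them at 27.8 and 21 TPM and at 48.3 and 39.4 TPM. In room air 14 of 17 members were higher and 2 lower in KO than in B6, against 33.9% and 15.3% of 12320 genes, and the same numbers held for DBA, against 40.7% and 16.2%. Most of these genes passed the filter only through the KO and DBA cultures, where they are high, so the counts describe the choice of genes as much as the cultures.

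The largest differences in room air were those of the fibrillar chains and of Col12a1. On the log2(TPM + 1) scale KO exceeded B6 by 5.58 ± 0.14 for Col1a2, 4.79 ± 0.17 for Col1a1, 3.46 ± 0.16 for Col5a2, 3.31 ± 0.19 for Col12a1, 2.65 ± 0.17 for Col4a1 and 2.57 ± 0.14 for Col6a1. The DBA values were 5.31, 4.64, 3.51, 3.63, 2.38 and 2.38, with Col8a1 at 2.85. Col18a1 and Col4a5 went the other way: Col18a1 was at 17.3 and 11.1 TPM in B6, 3.63 and 2.93 TPM in KO and 6.70 and 6.36 TPM in DBA. Between KO and DBA cultures, which share a date code, 1 member was higher in KO (Col6a3, 0.79 ± 0.15) and 1 lower (Col18a1, -0.82 ± 0.23), against 10.1% and 15.1% of all genes. Genotype and date code cannot be told apart for B6 against KO or DBA. Quantile normalization, which moved the median of all genes from 0.14 to -0.01 for KO and from 0.19 to 0.00 for DBA against B6, gave splits of 13 higher and 3 lower and of 13 and 2.

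Fibroblast and smooth muscle markers followed the same cultures. The 7 fibroblast markers summed to 0.438 and 0.754 TPM in B6 room air cultures, 21.7 and 16.1 TPM in KO and 15.1 and 16.9 TPM in DBA, with 3 of 7 averaging 1 TPM or more in KO and DBA, and Tcf21 and Mfap4 below 0.1 TPM in both. The 4 smooth muscle markers summed to 1.52 and 0.911 TPM in B6, 62.1 and 50.3 TPM in KO and 43.8 and 39.7 TPM in DBA; Myh11 was below 0.1 TPM in KO and Cnn1 in DBA. Macrophage markers summed to 15645 to 23978 TPM over all cultures. Of 24 collagen-making genes tested, 17 were higher and 2 lower in KO and 18 and 2 in DBA, and of 8 basement membrane partners 8 and 7 were higher, beside the 33.9% and 40.7% of all genes. Genes of these lists, such as Serpinh1, Lox, Nid1 and Hspg2, likewise passed the filter only through the KO and DBA cultures. Whether the collagen messages came from macrophages or from other cells in the cultures was not tested.

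With hyperoxia the same messages dropped in KO and DBA cultures. In KO 13 of 17 members fell and 2 rose, against 16.4% and 6.88% of all genes, and in DBA 12 fell and 1 rose, against 13.0% and 5.73%. Most of these members passed the filter through the KO and DBA cultures, and Col6a2, Col6a3 and Col16a1 only because of the room air ones, a choice that favors a fall, so nothing is read from the counts. Col1a2 went to 12.5 and 15.6 TPM in KO (-1.85 ± 0.14, adjusted p = 4.8e-05) and to 15.5 and 16.7 TPM in DBA (-1.38 ± 0.14, adjusted p = 0.00036). Col1a1 went to 7.81 and 11.2 TPM in KO (-1.43 ± 0.17) and to 10.2 and 11.6 TPM in DBA (-1.09 ± 0.17). All 5 fibrillar members fell in both genotypes, as did Col6a1 (-1.58 and -1.30), Col12a1 (-1.16 and -0.98), Col8a1 (-1.10 and -1.37) and Col4a1 (-1.08 and -0.77). Col6a2 differed by -1.29 and -0.91, a direction that its choice through the room air cultures favors.

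Over the same cultures the fibroblast marker sum went down to 4.75 and 5.73 TPM in KO and 4.17 and 5.44 TPM in DBA, and the smooth muscle sum to 19.3 and 21.5 TPM and to 12.8 and 15.2 TPM. Of 24 collagen-making genes 12 fell and 2 rose in KO, beside 16.4% and 6.88% of all genes. In DBA 10 fell and 0 rose, beside 13.0% and 5.73%. Pcolce (-1.68 and -1.37), Loxl1 (-1.66 and -1.19) and Lox (-1.46 and -1.04) fell in both. The perlecan core protein Hspg2 (-1.71 and -1.36), Nid1 (-1.26 and -0.90) and Lamb1 (-0.98 and -1.32) fell with them. The marker genes' part in the collagen fall was not tested. For DBA the count depends on 1 culture: without hyperoxia replicate 1 it was 6. Under quantile normalization the DBA split was 1 rising and 9 falling, and the KO split stayed at 2 and 13. Nothing is read from these counts either, because of the same choice of genes.

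Col18a1 and Col23a1 were the 2 members that rose in B6 macrophages, and none fell, against 5.68% rising and 22.8% falling of all genes. In B6 and KO, Col23a1 reached 1 TPM only in hyperoxia cultures, a choice that favors a rise, so nothing is read from the count. Col18a1 went from 17.3 and 11.1 TPM to 36.1 and 22.4 TPM (0.98 ± 0.23, adjusted p = 0.012) and Col23a1 from 0.723 and 0.734 TPM to 2.14 and 1.67 TPM (0.74 ± 0.14, adjusted p = 0.0038). In KO Col18a1 went from 3.63 and 2.93 TPM to 6.84 and 5.88 TPM (0.78 ± 0.23, adjusted p = 0.037) and Col23a1 from 0.535 and 0.451 TPM to 1.32 and 1.15 TPM (0.58 ± 0.14, adjusted p = 0.014). In DBA Col23a1 rose by 0.63 (SE 0.14, adjusted p = 0.012), a call lost without either hyperoxia culture, and Col18a1 was at 6.70 and 6.36 TPM and then 8.93 and 7.26 TPM without passing. Fitted on the B6 cultures alone, neither B6 call held. With the culture mark of the column names (MF or F) as a block in that fit, an alternative added after seeing the data, both held, and within each mark Col18a1 was higher in hyperoxia (17.3 and 36.1 TPM, 11.1 and 22.4 TPM). In the fit of all cultures the count was 1 without room air replicate 2 or hyperoxia replicate 1. The KO calls of both genes were lost when any KO culture was left out.

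**Figure D5:**
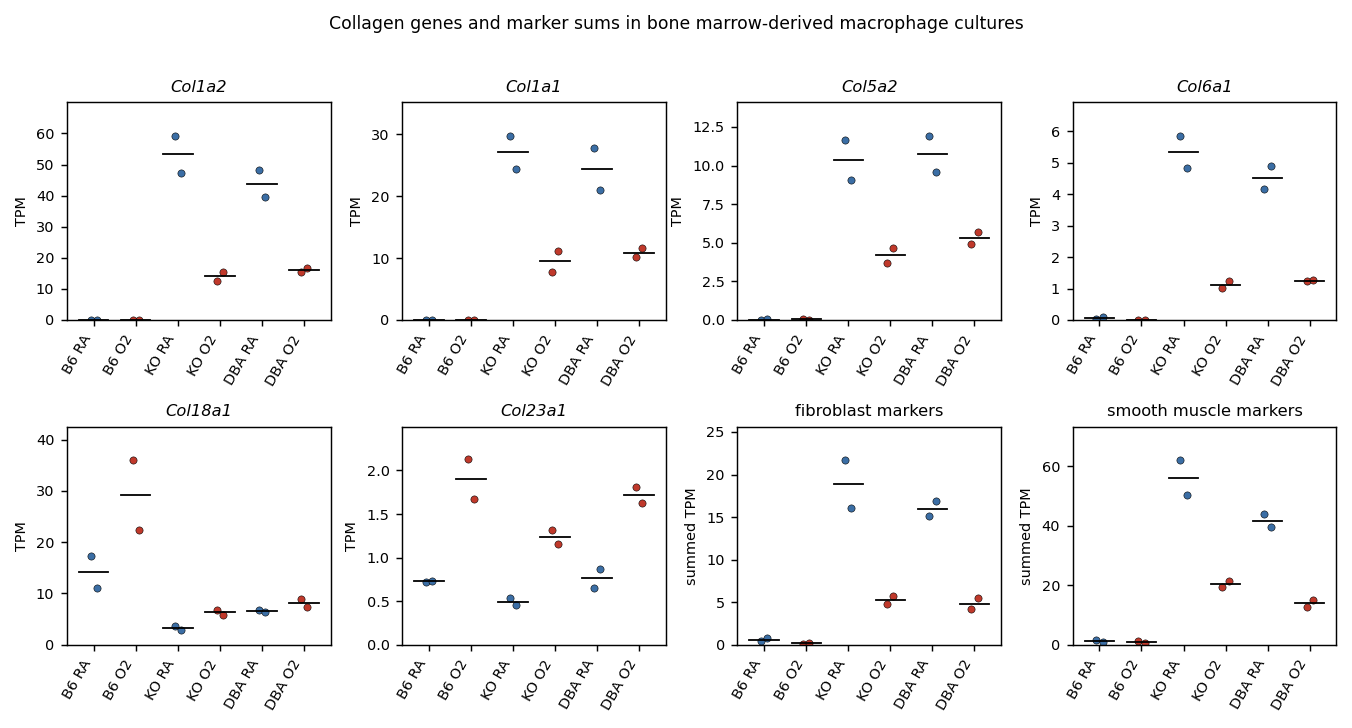
TPM of 6 members and summed TPM of fibroblast and smooth muscle markers in each macrophage culture (RA room air, O2 hyperoxia; bars are means of 2 cultures). Col1a2 lies near 0 in B6, at 39.4 to 59.3 TPM in KO and DBA room air cultures and at 12.5 to 16.7 TPM in hyperoxia, and both marker sums are likewise lowest in B6 and, in KO and DBA, higher in room air than in hyperoxia.

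Peaks of p53, the stress-responsive transcription factor, were sparse near collagen start sites. In the authors' 10 lists, which hold 134 to 4107 peaks each, 0 of the 37 members had a peak within 10 kb of the start site, beside 3464 of 24940 listed genes (13.9%). Counting the transcript body as well, 8 members (21.6%) had a peak in at least 1 list, beside 22.6% of all genes; members span a median of 106 kb and all listed genes 13.6 kb. In B6 hyperoxia macrophages the peaks lay within Col26a1, Col27a1, Col4a5 and Col6a4, the one in Col27a1 at chr4:63316098-63316298 (mm10), 100.8 kb past the start, with an authors' score (normalized tag count) of 12. In B6 room air macrophages they lay within Col15a1, Col25a1 and Col4a6. The list of KO room air macrophages, grouped by its title because another label names a different genotype, had 1 in Col14a1. In lung, DBA room air had a peak within Col15a1 and KO room air 1 within Col25a1, and none lay in the body or within 10 kb of a member in the hyperoxia lists. Within 50 kb but outside the body lay 1 before Col7a1 (B6 hyperoxia lung, 19.3 kb) and 1 before Col8a1 (B6 room air macrophages, 27.9 kb). No test was made, and lists of unequal length show no change between groups.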

How the data were processed

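The authors deposited TPM per gene for each library of poly(A) RNA, made with STAR and HOMER on mm10 per the submitters' processing notes and file headers, in 4 tables that were normalized separately (28 lung and 12 macrophage libraries). Low values are whole multiples of a read's worth (100% within a tolerance of 0.15 reads), which gave depth. The listed TPM of a library did not add up to a common total. The sums were 529199 to 544857 in B6 and KO lungs and 529339 to 575806 where B6 is tabulated with DBA. They were 572925 to 605692 in set 2 and 529220 to 555113 in macrophages. The authors' p53 peak lists (Bowtie2 and HOMER, per the submitters' processing notes) carry a score per peak, a normalized tag count, on combined replicates, per the file headers. Sources used here do not give strand use in counting, so overlapping starts (Col4a1, Col4a2) may share reads.

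Values were tested as log2(TPM + 1) with limma 3.58.1 (R 4.3.3; trended variance, a mean per group, all groups of a table in a fit) with Benjamini-Hochberg adjustment over all genes at 1 TPM or more in 3 or more libraries (2 in set 2 and macrophages, the size of the smallest group). Log2 differences understate changes of low genes. The fit was tested on simulated data. Replicate numbers restart with each date code in lung, and numbers shared between groups did not pair libraries. No per-sample column was left out (0 unused).

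Named were Col1a1, Col1a2, Col3a1, Col5a1, Col5a2 and the type IV genes in lung, up to 6 called members per direction at a mean of 5 TPM or more in the higher group (1 in macrophages) and up to 4 called genes per partner list; further names were added after their values were seen and are marked. A partner gene that this rule names is not reported here. Alternatives were quantile normalization, a pseudocount of 0.1, no filter, the compared groups alone, leaving out each library, males alone, date codes, blocks and peak distances. Members and lists were chosen with earlier results of these data known.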

Additional observations from a re-analysis of the deposited data

Results flagged for a closer look

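Of 182 sets of values, each 1 member in 1 lung group of 4 libraries, 8 held a value set apart from the other 3. Chance gives about 1 in 20, and many of the sets share libraries. Col16a1 was low in KO room air replicate 1 (21 TPM, others 31.5 to 32.2), as was Col18a1 (18.6 TPM, others 24.3 to 25.3). Col25a1 was high in KO room air replicate 3 (2.75 TPM) and in KO hyperoxia replicate 4 (1.795 TPM). In DBA room air Col4a3 was high in replicate 2 (68.2 TPM) and Col8a2 in replicate 4 (10.3 TPM), and in DBA hyperoxia Col16a1 was high in replicate 1 (31.5 TPM) and Col10a1 low in replicate 2 (0.055 TPM).

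Responses that differed from B6 by the interaction term were, in KO, Col27a1 (1.43), Col13a1 (0.84), Col4a5 (0.82), Col5a3 (0.81), Col8a1 (0.79) and Col4a6 (0.70), and in DBA Col13a1 (1.73), Col6a3 (1.20), Col6a2 (1.10), Col18a1 (0.90), Col4a3 (0.74), Col4a5 (0.53) and Col11a2 (-1.17).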

How the results depend on the processing

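Of 153 called member values, 94 kept their call under every alternative; the only reversal with a call was Col5a1 in B6 lung, -0.74 within males. Counts of called members that moved by over 1.5 times were 1 in DBA lung within the fourth date code (12 in all), 1 in set 2 without a filter and 6 with the replicate block (2), 14 and 12 for the KO and DBA responses against B6 within males (6 and 7), 6 for KO against B6 in hyperoxia without a filter (10), and 0 in B6 macrophages fitted alone (2). The share of all genes called was not taken in these fits. For p53 the 8 members became 0 when only start sites counted, an alternative added after seeing the data. With the replicate block KO macrophages kept 15 calls and DBA had 10 (13); same-numbered libraries correlated at -0.05 in KO, 0.08 in DBA and 0.05 and 0.01 in set 2, so numbers only name samples. No paired analysis was possible for lung of the first set because its column numbers restart with each date code, nor between macrophage genotypes because both B6 columns of a group carry the same number. For hyperoxia in B6 macrophages the culture mark as a block, added later, gave 2.

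Leaving out a library gave counts of 6 to 12 in B6 lung, 5 to 8 in KO, 7 to 13 in DBA, 0 to 3 in set 2, 4 to 9 and 5 to 10 for the KO and DBA responses against B6, 5 to 11 for KO against B6 in hyperoxia, 23 to 24 and 7 to 10 for DBA against B6, 1 to 2, 12 to 13 and 6 to 11 in B6, KO and DBA macrophages, and 15 to 16 or 16 between macrophage genotypes. Where 1 library is left in a group it is assumed to vary like the others. Members near 1 TPM rest on few reads, most of all at the depth of set 2.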
